A study of Rattus norvegicus with 24 samples.

Results

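The 8 genes described here, Phgdh, Psat1, Psph, Shmt1, Shmt2, Mthfd1, Mthfd2 and Mthfd1l, encode the enzymes that make serine and move its carbon onto folate. They were taken by symbol from the 17420 genes of the deposited table, and all 8 were found. The list was drawn up with results of the same group comparisons already known. The differences of these genes between the groups are therefore a description, with no test.

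RNA was sequenced from the hippocampus and neocortex of 24 Sprague-Dawley rat pups on embryonic day 18. The pups came from 4 groups of dams, namely Saline, Low Protein, MAM (the antimitotic agent methylazoxymethanol acetate) and Poly I:C (a synthetic double-stranded RNA that mimics a viral infection). Saline, MAM at 22 mg/kg or Poly I:C at 7.5 mg/kg was injected into the dam on gestational day 17, and the tissue was taken 18 hours later. Low Protein dams ate food with 6.1% protein from gestational day 11 to 18, against 20.3% in the control food. The food of MAM and Poly I:C dams is not stated, nor is any injection of Low Protein dams. Each group held 6 pups, with 3 from each of 2 litters. The numbers that name the samples (1-1, 2-1 and so on) were taken to give the litter first. The dam, not the pup, was treated, so p-values and standard errors over pups measure the spread between pups, and 2 litters are few. Litters with the same number in different groups come from different dams.

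Levels are given as TPM, a measure of expression scaled by the authors for depth and length, and a log2 difference is a difference in mean log2 TPM. The deposited values fall with the length of the gene in the genome, not with that of its transcript, so levels were compared between pups and never between genes. Depth is not in the table and was estimated at 25.0 M to 70.5 M reads per pup, with M for mega. By the same estimate, Shmt2 had 1512 to 4691 reads per pup, Psat1 1298 to 4856 and Shmt1, the gene with the fewest, 80.0 to 355.3. Counting error alone was then 11.2% of the value of Shmt1 in the pup with the fewest reads and 2.57% for Shmt2. The forebrain genes Emx2, Lhx2, Neurod6 and Tbr1, which mark the labelled tissue, were above the offset of 0.0001 in all 24 pups, at 2.10 to 4.36 TPM for Emx2, 3.57 to 7.73 for Lhx2, 46.8 to 127.3 for Neurod6 and 10.4 to 16.9 for Tbr1.

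Serine is made from an intermediate of glycolysis in 3 steps. PHGDH oxidizes phosphoglycerate, PSAT1 adds an amino group, and PSPH removes the phosphate. SHMT then splits serine into glycine and a carbon unit that is loaded onto folate, with SHMT2 in the mitochondria and SHMT1 in the cytosol. In mitochondria, MTHFD2 oxidizes the folate-bound unit and MTHFD1L releases it as formate, while MTHFD1 carries out the same kind of reactions in the cytosol, where the carbon serves purine and thymidylate synthesis. In the embryonic brain the pathway feeds nucleotide synthesis in dividing progenitors. Loss of PHGDH, PSAT1 or PSPH in people causes serine deficiency disorders with small brain size. Several of these genes are known targets of ATF4, a transcription factor that is translated when amino acids are scarce.

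The stretches upstream of 4 of these genes are shown because Psat1, Psph and Shmt2 differed most between litters, relative to the spread between pups, and Mthfd2 holds most CCAAT boxes. They are the 250 bases before the RefSeq gene start, 5′ to 3′ on the strand of the gene, in build GRCr8, while the reads were aligned to rn6. Capitals mark GATGCAA, the core of the element that ATF4 is known to bind with a C/EBP partner, and CCAAT, on either strand.
Psat1, chr1:222645409-222645658, minus strand: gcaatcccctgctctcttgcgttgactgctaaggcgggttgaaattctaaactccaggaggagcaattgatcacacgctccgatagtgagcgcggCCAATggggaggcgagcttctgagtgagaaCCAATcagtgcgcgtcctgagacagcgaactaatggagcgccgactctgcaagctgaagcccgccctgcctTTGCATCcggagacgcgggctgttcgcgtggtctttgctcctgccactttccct
Mthfd2, chr4:117380351-117380600, minus strand: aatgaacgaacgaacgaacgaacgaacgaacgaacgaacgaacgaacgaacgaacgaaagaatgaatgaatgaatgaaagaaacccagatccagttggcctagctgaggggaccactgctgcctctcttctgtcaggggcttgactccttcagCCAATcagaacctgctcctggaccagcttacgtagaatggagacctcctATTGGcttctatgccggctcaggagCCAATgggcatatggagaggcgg
Psph, chr12:32526841-32527090, plus strand: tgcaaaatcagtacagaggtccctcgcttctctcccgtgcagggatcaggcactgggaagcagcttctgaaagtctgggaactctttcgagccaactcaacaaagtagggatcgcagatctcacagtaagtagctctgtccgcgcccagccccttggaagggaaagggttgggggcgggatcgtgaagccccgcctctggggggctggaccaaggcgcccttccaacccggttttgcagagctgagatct
Shmt2, chr7:65249568-65249817, minus strand: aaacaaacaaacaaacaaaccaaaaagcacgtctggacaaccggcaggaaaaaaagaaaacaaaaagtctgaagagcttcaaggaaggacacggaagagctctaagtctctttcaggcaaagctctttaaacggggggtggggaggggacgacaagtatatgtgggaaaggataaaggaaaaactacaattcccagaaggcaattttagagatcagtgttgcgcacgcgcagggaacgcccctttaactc
Of the 8 genes, 7 were matched to a RefSeq promoter window of 300 bases, which ends 50 bases after the start, and Mthfd1 was not matched. GATGCAA stood on the minus strand of Psat1, as TTGCATC, with its first base 54 bases before the start, and in the window of none of the other 6 genes. It was found in 2.56% of all 33469 windows. CCAAT was found in 4 of the 7 windows, those of Phgdh, Psat1, Shmt1 and Mthfd2, against 37.5% of all windows. Mthfd2 held 3 CCAAT matches, which began 97, 48 and 23 bases before the start, and Psat1 held 2, at 155 and 125 bases. The longer element TGATGNAAN, which contains the core where its first N is C, was in 0 of the 7 windows and 3.97% of all. CACGTG, a palindrome bound by basic helix-loop-helix factors that overlaps none of the others, was in the window of Shmt1 at 89 and 61 bases before the start, and in 6.42% of all windows. All motifs but TGATGNAAN were chosen after the sequences were seen, so nothing is read from their shares. These letter matches are a description and do not show binding.

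The standard errors of the log2 differences come from a limma fit over 13786 genes above the offset in at least 12 pups. This wider set was needed because the study's filter, a mean above 1 TPM in every group, kept only Phgdh, Psat1 and Shmt2. Mthfd2 lay just under that limit, with a lowest group mean of 0.918 TPM in MAM. Phgdh lay just above it, with a lowest group mean of 1.18 TPM, also in MAM.

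In Low Protein pups the mean level of all 8 genes was above that of saline pups. The median log2 difference of the 8 genes was 0.29, against -0.015 over all genes. Across all genes, 45.3% were higher in Low Protein. At an unadjusted limma p under 0.05, 6 of the 8 (all but Phgdh and Mthfd1) were higher, against 2.76% of all genes. After adjustment 0 of all 13786 genes passed, and so 0 of the 8. Poly I:C pups also had 8 of 8 means above saline, at a smaller median of 0.15, against 0.0021 over all genes and 50.6% of all genes higher. Here 3 of the 8 (Psat1, Shmt1 and Mthfd2) were higher at the unadjusted threshold, against 3.82% of all genes. After adjustment 0 of the 8 passed, as did 0 of all genes. In MAM pups 4 of the 8 means were higher and 4 lower, with a median of -0.0018, against -0.071 over all genes and 29.9% of all genes higher. In MAM 1 of 8 (Shmt1) was higher at the unadjusted threshold, against 2.17% of all genes. With the samples scaled by the median of ratios the MAM means were higher for 6 of the 8 genes and by the upper quartile for 5, while 8 of 8 stayed higher in Low Protein and Poly I:C under both. Among all genes past the unadjusted threshold in the 5086-gene fit, the share that was higher in MAM was 27.3% as deposited, 80.0% by the median of ratios and 56.5% by the upper quartile, and in Low Protein 44.4%, 58.9% and 42.9%. Nothing is read from these counts, since the list was chosen with the same comparisons known, and all 3 comparisons share the saline pups.

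**Figure D1:**
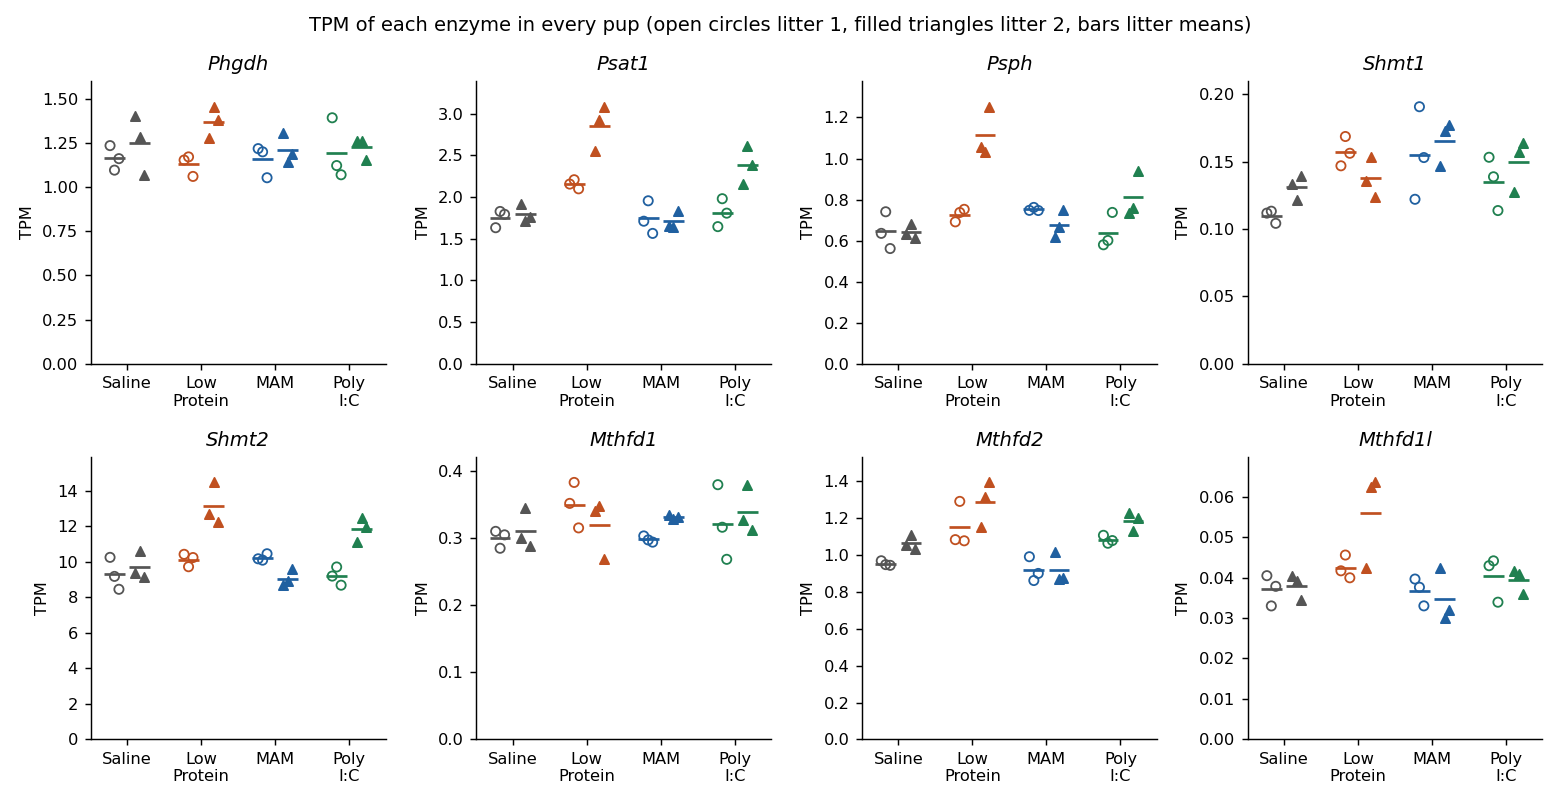
TPM of each of the 8 enzymes (vertical axes, from 0) in every pup of the 4 groups, with open circles for litter 1, filled triangles for litter 2 and bars for the litter means. The litter means of Psat1, Psph and Shmt2 are highest in litter 2 of Low Protein, and Psat1 and Shmt2 in litter 2 of Poly I:C lie above all 6 saline pups.

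Phgdh, the first and committed enzyme of serine synthesis, hardly differed in mean between the groups. Its level had a lowest, median and highest value of 1.07, 1.20 and 1.40 TPM in saline, 1.05, 1.19 and 1.31 in MAM, 1.07, 1.21 and 1.39 in Poly I:C and 1.06, 1.23 and 1.46 in Low Protein. The 4 ranges overlapped almost entirely. The log2 difference from saline was 0.047 in Low Protein, 0.0033 in Poly I:C and -0.025 in MAM, with an SE of 0.083 for each.

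Psat1, the aminotransferase of the second step, was the only one of the 8 genes whose treated pups did not overlap with saline. In saline pups its level was 1.63, 1.83 and 1.79 TPM in litter 1 and 1.92, 1.71 and 1.76 in litter 2. In Low Protein pups it was 2.16, 2.21 and 2.10 in litter 1 and 2.55, 2.93 and 3.08 in litter 2. Every Low Protein pup lay above every saline pup, which held for 0.174% of all genes, and every pup of litter 2 lay above every pup of litter 1. Poly I:C pups had 1.64, 1.98 and 1.81 TPM in litter 1 and 2.16, 2.61 and 2.38 in litter 2. Litter 1 of Poly I:C overlapped with saline, whereas all 3 pups of litter 2 were above it. In MAM pups it was 1.71, 1.96 and 1.56 in litter 1 and 1.65, 1.64 and 1.84 in litter 2, with 1 pup above and 1 below the saline range. The log2 difference from saline was 0.48 (SE 0.11) in Low Protein, a 1.40-fold difference, 0.23 (SE 0.11) in Poly I:C and -0.042 (SE 0.11) in MAM.

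Psph, the phosphatase of the last step, was set apart by a single Low Protein litter. Saline pups had 0.635, 0.741 and 0.561 TPM in litter 1 and 0.631, 0.679 and 0.611 in litter 2. Low Protein pups had 0.691, 0.737 and 0.752 in litter 1 and 1.06, 1.03 and 1.25 in litter 2. Only litter 2 cleared the highest saline pup in all 3 pups, with a level 1.73-fold that of the 6 saline pups, against 1.13-fold in litter 1. Poly I:C pups had 0.580, 0.601 and 0.737 TPM in litter 1 and 0.732, 0.760 and 0.940 in litter 2, of which 2 pups were above all saline pups. MAM pups had a lowest, median and highest value of 0.617, 0.747 and 0.762, and in MAM it was litter 1 whose 3 pups were above saline. The log2 difference from saline was 0.49 in Low Protein, 0.16 for Poly I:C and 0.15 in MAM, with an SE of 0.13 for each.

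Shmt2, the mitochondrial serine hydroxymethyltransferase, followed Psat1 and Psph. Its level was 10.2, 9.18 and 8.45 TPM in saline litter 1 and 9.39, 10.6 and 9.15 in saline litter 2. In Low Protein it was 10.4, 9.72 and 10.2 in litter 1 and 12.7, 14.5 and 12.2 in litter 2. Litter 1 lay inside the saline range and litter 2 wholly above it. Poly I:C pups had 9.20, 9.71 and 8.68 in litter 1 and 11.1, 12.5 and 11.9 in litter 2, the same arrangement. In MAM it was 10.2, 10.1 and 10.5 in litter 1 and 8.68, 8.89 and 9.60 in litter 2, all inside the saline range. The log2 difference from saline was 0.28 (SE 0.10) in Low Protein, 0.14 (SE 0.10) in Poly I:C and 0.022 (SE 0.10) in MAM.

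Mthfd2, the mitochondrial dehydrogenase and cyclohydrolase, had its group means in the order MAM, saline, Poly I:C and Low Protein. Its lowest, median and highest values were 0.861, 0.888 and 1.01 TPM in MAM, 0.944, 1.00 and 1.11 in saline, 1.06, 1.12 and 1.23 in Poly I:C and 1.08, 1.22 and 1.39 in Low Protein. The steps from MAM to saline and from saline to Poly I:C were larger than the SD between pups of either group, but neighbouring groups overlapped. The log2 difference from saline was 0.27 (SE 0.068) in Low Protein, 0.17 (SE 0.068) in Poly I:C and -0.14 (SE 0.068) in MAM. Both MAM litters lay equally far below the mean of the 6 saline pups, at -0.14 each. The saline litters did not overlap, with 0.944 to 0.969 TPM in litter 1 and 1.03 to 1.11 in litter 2. The MAM difference was thus -0.22 without saline litter 1 and -0.057 without saline litter 2. For Poly I:C it was 0.089 and 0.25 in that order. Set against MAM in place of saline, Low Protein was higher by 0.40 (SE 0.068) and Poly I:C by 0.31 (SE 0.068).

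Mthfd1l, the mitochondrial formate-tetrahydrofolate ligase, had the longest gene of the 8 and a low level per length. Low Protein pups had 0.0417, 0.0456 and 0.0399 TPM in litter 1 and 0.0422, 0.0624 and 0.0635 in litter 2, against 0.0330 to 0.0405 over the 6 saline pups. The pups of litter 2 with 0.0624 and 0.0635 stood apart, while the third pup of that litter lay among those of litter 1. The log2 difference from saline was 0.37 in Low Protein, 0.084 for Poly I:C and -0.076 in MAM, with an SE of 0.12 for each.

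The cytosolic enzymes were lower in litter 2 than in litter 1 of Low Protein, and higher in litter 2 of Poly I:C, at differences that did not pass the unadjusted threshold. Shmt1, the cytosolic serine hydroxymethyltransferase, had a mean of 0.121 ± 0.0134 TPM in saline (SD, n = 6 pups), 0.142 ± 0.0193 in Poly I:C, 0.147 ± 0.0159 in Low Protein and 0.160 ± 0.0247 in MAM. It was the only one of the 8 genes with its highest mean in MAM, at a log2 difference of 0.40 (SE 0.11), against 0.29 (SE 0.11) under Low Protein and 0.24 (SE 0.11) under Poly I:C. The step from saline to Poly I:C was larger than the SD of either group, those among the 3 treated groups were not, and all 4 ranges overlapped. The saline litters stood apart for this gene, with 0.104 to 0.113 TPM in litter 1 and 0.122 to 0.139 in litter 2, so that the MAM difference was 0.28 without saline litter 1 and 0.53 without saline litter 2. Mthfd1, the cytosolic enzyme with 3 activities, had a mean of 0.305 ± 0.0214 TPM in saline (SD, n = 6 pups), 0.315 ± 0.0186 in MAM, 0.330 ± 0.0427 in Poly I:C and 0.334 ± 0.0387 in Low Protein. No step in that order exceeded the SD between pups. Its log2 difference from saline was 0.12 in Low Protein, 0.10 for Poly I:C and 0.043 in MAM, with an SE of 0.084 for each.

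**Figure D2:**
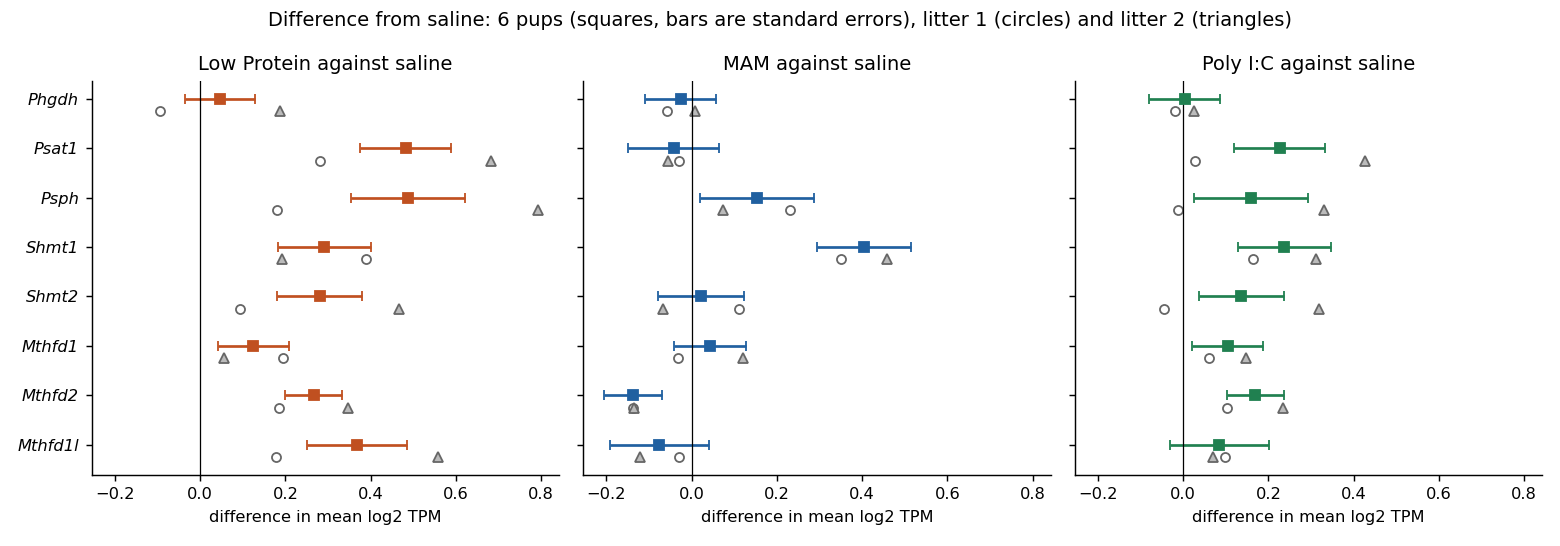
Difference from saline in mean log2 TPM (horizontal axes) for each enzyme and treatment, with squares for all 6 pups, bars for the standard error of the limma fit, circles for litter 1 and triangles for litter 2. In Low Protein the triangle lies right of the circle for 6 genes, and left of it for the cytosolic Shmt1 and Mthfd1.

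Taken by litter, the median Low Protein and Poly I:C differences of the 8 genes were larger in litter 2. In Low Protein litter 2, 5 of the 8 genes (Psat1, Psph, Shmt2, Mthfd2 and Mthfd1l) were above the highest saline pup in all 3 pups, with a median log2 difference of 0.41 over the 8 genes. In Low Protein litter 1, 2 of the 8 (Psat1 and Shmt1) were so, with a median of 0.18. In Poly I:C litter 2, 3 of the 8 (Psat1, Shmt2 and Mthfd2) were above in all 3 pups, with a median of 0.27, and in litter 1 there were 0 of 8, with a median of 0.044. The MAM litters had 1 of 8 each, Psph in litter 1 and Shmt1 in litter 2, and medians of -0.030 and -0.023. The share of all genes with all 3 pups of a litter above saline was not computed, so nothing is read from these counts.

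The difference between the litters of each group was then taken from a limma fit. Litters were set apart in the choice of these genes, whose results were known, so this contrast is not independent of the choice, and its counts are a description from which nothing is read. Psph was higher in litter 2 of Low Protein by 0.61 (SE 0.12). Psat1 was higher there by 0.40 (SE 0.098), Shmt2 by 0.37 (SE 0.083), Mthfd1l by 0.38 (SE 0.16) and Phgdh by 0.28 (SE 0.11). These 5 genes passed the unadjusted threshold, against 1.73% of all genes higher in that litter. After adjustment 0 of 8 passed, as did 0 of all 13786 genes. For 4 of the 8 (Phgdh, Psat1, Psph and Shmt2) the 3 pups of litter 2 were above the 3 of litter 1, against 2.68% of all genes. The cytosolic genes went the other way in sign, at -0.20 (SE 0.15) for Shmt1 and -0.14 (SE 0.12) for Mthfd1, and neither passed.

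In Poly I:C, Psat1 was higher in litter 2 by 0.40 (SE 0.098), Shmt2 by 0.36 (SE 0.083) and Psph by 0.34 (SE 0.12). These 3 of the 8 passed the unadjusted threshold, against 4.42% of all genes. After adjustment 0 of the 8 passed, against 0% of all genes higher. Without pup 2-1 of Poly I:C, the number of genes past the adjusted threshold in the 5086-gene fit went from 0 to 249. Psat1 at 0.47 and Shmt2 at 0.41 also passed in that setting. Of all pups left out in turn, this gave the most such genes, so nothing is read from it. For 3 of the 8 (Psat1, Shmt2 and Mthfd2) litter 2 was wholly above litter 1, against 7.14% of all genes. The same contrast was smaller in saline, at -0.0036 to 0.26 over the 8 genes with 0 of 8 past the unadjusted threshold, against 1.20% of all genes higher. In MAM it ran from -0.18 to 0.15, and Shmt2, at -0.18 (SE 0.083), was the gene past the unadjusted threshold, against 0.740% of all genes lower.

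**Figure D3:**
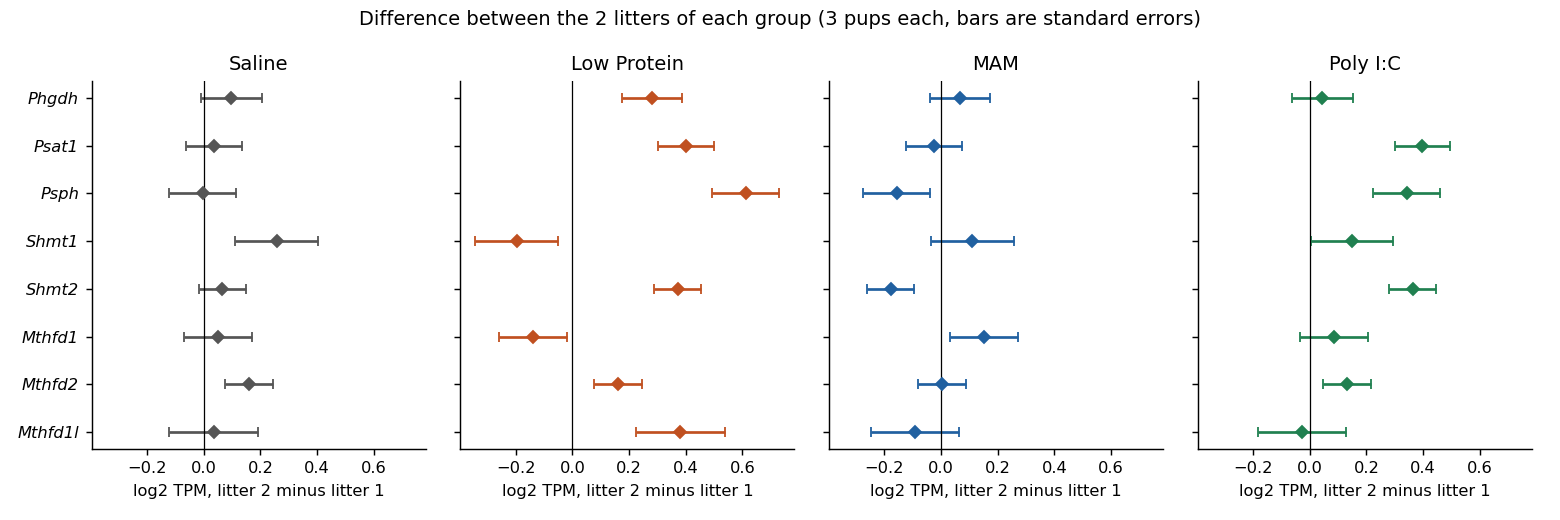
Difference in mean log2 TPM between litter 2 and litter 1 (horizontal axes) of each group for the 8 enzymes, with bars for the standard error of the limma fit. In Low Protein and Poly I:C, Psat1, Psph and Shmt2 lie between 0.34 and 0.61, and in saline between -0.0036 and 0.067.

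Other measurements also differed between these litters, and their part in the result was not tested. Marker counts below give the listed genes that were found in the table, not genes that changed. Each sum is weighted to the markers with the highest TPM. In Low Protein the summed level of 8 of 8 proliferation markers was 36.9 to 39.2 TPM in litter 1 and 31.5 to 33.8 in litter 2, against 30.4 to 34.7 in saline. The levels of Psat1, Psph and Shmt2 were thus higher in the Low Protein litter with the lower proliferation sum. For Poly I:C the sum was 34.0 to 34.3 in litter 1 and 38.4 to 43.4 in litter 2, the other way round. Poly I:C litter 2 also had the higher sums of 4 of 4 choroid plexus markers (192.4 to 243.8 TPM against 32.6 to 151.7), 5 of 5 microglial markers (8.53 to 9.27 against 6.47 to 8.11) and 4 of 4 endothelial markers (53.7 to 68.8 against 40.9 to 48.9), and the lower sum of 4 of 4 astrocyte markers (0.998 to 1.40 against 1.44 to 1.79). No marker found in the table was at the offset in all pups. The sums for radial glia, neurons, interneurons, blood (6 of 8 markers) and meninges overlapped between the litters of both groups. Estimated depth was 25.0 M to 62.6 M reads in Low Protein litter 1, 34.0 M to 54.8 M in Low Protein litter 2, 29.0 M to 29.5 M in Poly I:C litter 1 and 32.3 M to 41.8 M in Poly I:C litter 2. In bulk tissue, a change in the number of cells of a type and a change in RNA per cell cannot be told apart.

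The spread of each gene can be put as the SD between litter means over that expected from the SD between pups of a litter. This ratio was 3.59 for Shmt2, 3.05 for Psph and 2.98 for Psat1, and lay between 0.963 (Mthfd1) and 1.65 (Mthfd2) for the other 5 genes. The standard errors of the group differences above treat the pups of a litter as independent and do not allow for this spread. Over the 24 pups, log2 TPM of Psat1 correlated at r = 0.81 with Shmt2 and 0.80 with Psph, and Psph with Shmt2 at 0.79. With the litter means removed these values were 0.038, 0.27 and 0.057, so the 3 genes varied together mainly between litters. Mthfd2 and Mthfd1l behaved otherwise, with r = 0.78 over the 24 pups and 0.69 with litter means removed, and so did Phgdh and Mthfd1l, with 0.68 and 0.72. The pups of a litter share a dam, so these values describe the 24 pups and carry no p.

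Among the 5086 genes with every group mean above 1, the 8 enzymes left out, those most like Psat1 over the 24 pups were the aminoacyl-tRNA synthetase genes Yars (Pearson r = 0.78, Spearman rho = 0.60), Mars (0.75 and 0.68) and Tars (0.74 and 0.70). Those most like Mthfd2 were Gars (r = 0.86, rho = 0.84), Aars (0.85 and 0.85) and Tars (0.83 and 0.82), which attach amino acids to tRNA as well. For Phgdh they were Ddrgk1 (r = 0.73, rho = 0.71), Gaa, which encodes the lysosomal glucosidase (0.71 and 0.71), and Slc7a5, a transporter of large neutral amino acids (0.71 and 0.67). With the group means removed, r fell to between 0.42 and 0.64 for the synthetases and was 0.73 to 0.75 for the genes like Phgdh.

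The other genes of the pathway, from 54 listed, were compared with saline over all genes. Of these, 53 were found in the table and 23 had every group mean above 1. In Low Protein, 3 of the 23 were higher and 1 lower at an unadjusted limma p under 0.05, against 3.66% of all 5086 genes higher and 4.58% lower. This count of 4 was 2 with litters as a random block, 2 without Low Protein pup 1-1 or 2-3, saline pup 1-1 or 2-2, MAM pup 1-1 or MAM litter 1, and 1 without saline litter 2 or Low Protein litter 1. In MAM, 1 was higher and 1 lower (3.07% and 8.18% of all genes), and in Poly I:C 2 were higher and 0 lower (4.25% and 5.70%). After adjustment 0 of the 23 passed in any comparison, and the lowest adjusted p was 0.199. Over all 5086 genes, 0 passed in Low Protein and Poly I:C and 1 in MAM. The median log2 difference of the 23 was 0.019 in Low Protein, 0.022 for Poly I:C and -0.0075 in MAM, against -0.0054, 0.0081 and -0.046 over all genes.

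Purine synthesis takes formyl groups from the folate that the 8 enzymes charge, and both of its formyl-transferring enzymes passed the unadjusted threshold in Low Protein and Poly I:C. Gart had a lowest, median and highest level of 1.98, 2.10 and 2.31 TPM in saline, 2.16, 2.49 and 2.70 in Low Protein and 2.03, 2.54 and 2.82 in Poly I:C. Its log2 difference was 0.22 (SE 0.065, adjusted p = 0.455) and 0.25 (SE 0.065, adjusted p = 0.199). Atic had 2.46, 2.70 and 3.05 TPM in saline, 2.72, 3.09 and 3.40 in Low Protein and 2.95, 3.09 and 3.30 in Poly I:C, with log2 differences of 0.17 (SE 0.056, adjusted p = 0.479) and 0.18 (SE 0.056, adjusted p = 0.271). Both were also above saline in litter 1 of Low Protein. In litter 2 the log2 difference was 0.17 for Gart and 0.095 for Atic, against 0.27 and 0.25 in litter 1. For Psat1, Psph and Shmt2 it was instead larger in litter 2. The other purine genes tested, Pfas, Paics and Adsl, did not pass in any comparison.

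Of the rest of the 23, Gcsh, the carrier protein of the glycine cleavage system, was higher in Low Protein by 0.14 (SE 0.065, adjusted p = 0.596), but not past the unadjusted threshold in the wider set, and Sfxn3, a mitochondrial serine transporter, lower by a log2 difference of -0.12 (SE 0.056, adjusted p = 0.596). In MAM, Eno1, a glycolytic enolase, was higher by 0.12 (SE 0.052) and Srr, which makes D-serine, lower at -0.15 (SE 0.064), with an adjusted p of 0.416 for each. Tyms, which uses the folate unit to make thymidylate and is also on the proliferation list, was at 0.0086 in Low Protein, 0.054 for Poly I:C and -0.090 in MAM and did not pass.

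The wider set of 13786 genes took in all 53. At the unadjusted threshold 3 were higher and 1 lower in Low Protein, against 2.76% and 598 of all 13786. In MAM 1 was higher and 5 lower, against 2.17% and 1034. In Poly I:C 5 were higher and 3 lower, against 3.82% and 724. After adjustment 0 of the 53 passed, against 0 of all genes in Low Protein and Poly I:C and 2 in MAM. Nothing is read from these counts. Aldh1l1 and Aldh1l2, which burn formyl-folate to carbon dioxide in the cytosol and the mitochondria, were lower in Poly I:C at -0.57 (SE 0.21, adjusted p = 0.411) and -0.27 (SE 0.089, adjusted p = 0.375), and Aldh1l2 was lower in MAM at -0.27 (SE 0.089, adjusted p = 0.498). Aldh1l1 is itself on the astrocyte list above, and in Poly I:C it was at -0.95 in litter 2 and -0.20 in litter 1. Cbs, which draws homocysteine into cysteine synthesis, was lower in Poly I:C at -0.46 (SE 0.15, adjusted p = 0.385), and Mtrr, which reactivates methionine synthase, higher at 0.19 (SE 0.078, adjusted p = 0.474). Mthfs at -0.33 (SE 0.11, adjusted p = 0.511), Ptdss1 at -0.17 (SE 0.052, adjusted p = 0.494) and Tdh at -0.87 (SE 0.34, adjusted p = 0.515) were lower in MAM. Sds, a serine dehydratase with 0.0063 to 0.0237 TPM in saline and 0.0237 to 0.0317 in Poly I:C, was higher in Poly I:C by 1.10 (SE 0.45, adjusted p = 0.470) at this very low level. Gldc, the glycine decarboxylase, was at 0.17 in Low Protein, 0.20 for Poly I:C and 0.061 in MAM, and Slc1a4, a serine transporter, at 0.11, -0.0091 and -0.12, and neither passed.

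**Figure D4:**
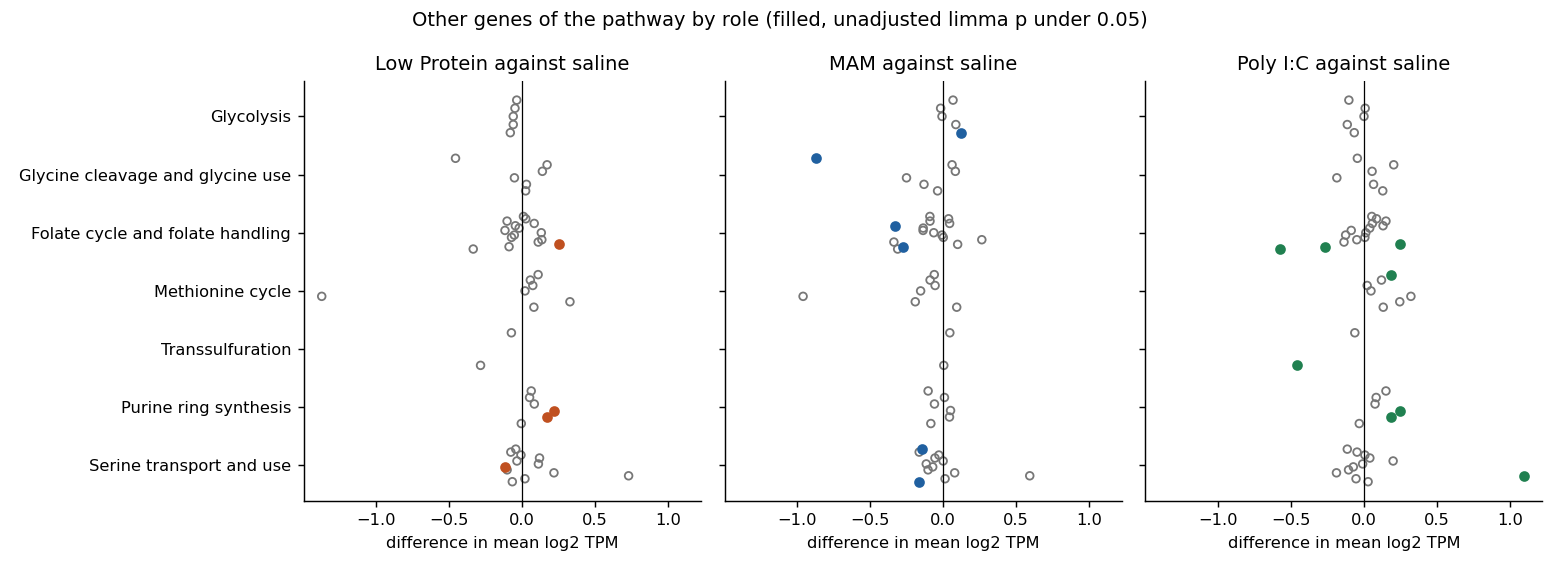
Difference from saline in mean log2 TPM (horizontal axes) of the 53 other pathway genes, grouped by role, with filled points for an unadjusted limma p under 0.05 in the fit over 13786 genes. Filled points number 4 for Low Protein, 6 for MAM and 8 for Poly I:C, and 0 pass after adjustment. Over all 13786 genes, 978, 1333 and 1251 pass the unadjusted threshold in that order.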

How the data were processed

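RNA from 24 pups was sequenced, and the authors deposited TPM values, not counts. Per the study's methods and processing notes, reads were aligned to rn6 with STAR 2.4.1d, quantified on RefSeq transcripts by the E/M method of Partek, and scaled to TPM after which 0.0001 was added as an offset. Deposited values sum to 70350.1 in every pup, and 20.9% of values equal the offset.

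Values were used as deposited, as log2 TPM. Limma 3.58.1 in R 4.3.3 was fitted with all 24 pups, by group or by group and litter, with Benjamini-Hochberg adjustment over the 5086 genes with every group mean above 1, the filter of the study, or over 13786 genes above the offset in at least 12 pups. The threshold was 0.05, unadjusted as in the study and adjusted. Scripts were tested on simulated data. Depth was estimated from the steps between low values. Between 49.2% and 54.3% of these were whole reads to within 0.05, where 10% would be by chance. Gene spans for it were matched for 97.6% of genes. Counting error is therefore approximate.

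The 8 members, the gene lists and the tests were chosen with earlier results of these data known. Named beside the members were pathway genes with an unadjusted p under 0.05, Slc1a4, Gldc, Tyms and Aldh1l1 whatever their values, the 3 genes most like Psat1, Phgdh and Mthfd2, and ATF4 targets with an unadjusted p under 0.05 in Low Protein. Some genes that this rule or the marker lists name are not reported here. All motifs but the longest were added after the sequences were seen. Alternatives covered the filter, scaling, pseudocount, variance model, pups in the fit, litters, a block and leaving out each pup and litter.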

Additional observations from a re-analysis of the deposited data

How the results depend on the processing

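Over 44 settings, the sign of the difference between Low Protein and saline was kept for Psat1, Psph, Shmt1, Shmt2, Mthfd1, Mthfd2 and Mthfd1l in all 44, and for Phgdh in 42. In Poly I:C, Psat1, Shmt1, Mthfd1, Mthfd2 and Mthfd1l kept it in all 44, Psph and Shmt2 in 43 and Phgdh in 36. The litter contrasts of Psat1, Psph and Shmt2 in Low Protein and Poly I:C kept their sign in all 31 settings. Many settings could not change a given difference, since they left out a pup or litter of another group, or changed only the filter or the variance model. The number of settings with the sign kept is therefore not a measure of how stable a difference is. The cause of the changes listed next was not tested.

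Counts of genes at the unadjusted threshold were 419 for Low Protein, 572 for MAM and 506 for Poly I:C. In that order they were 978, 1333 and 1251 with no filter on the group mean, 742, 1023 and 959 with every mean above 0.1, and 262, 250 and 312 on litter means. After adjustment they were 0, 1 and 0, with 2 in MAM with no filter or by the median of ratios, 2 in Low Protein and 2 in MAM above 0.1, and 0 in MAM with only the 12 pups compared, on litter means or with a block by the number in the sample names. Pathway genes numbered 4, 2 and 2, against 6 for MAM and 8 for Poly I:C with no filter, 4 and 7 above 0.1, 5 in MAM by the median of ratios, 1 in MAM by the upper quartile, 2 in Low Protein with litters as a random block, and 1, 0 and 1 on litter means. A pseudocount of 1 lowered the Low Protein median of the 8 genes from 0.29 to 0.088. Genes that differed between litters after adjustment numbered 4 for Low Protein and 0 for Poly I:C, against 0 and 2 with no filter, 2 and 2 by the median of ratios, 2 in Low Protein by the upper quartile and 2 in Poly I:C above 0.1.

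With the replicate block by the number in the sample names, 596, 794 and 652 genes passed the unadjusted threshold, 0 in MAM after adjustment, and 4 pathway genes in Poly I:C. Same-numbered pups deviated together (r over 0.1) in 9 of 18 pairs, with r from -0.23 to 0.47, so the numbers were not taken as pairs.

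Leaving out single pups or litters gave 271 to 530 genes at the unadjusted threshold for Low Protein, 163 to 862 for MAM and 228 to 964 in Poly I:C. After adjustment there were 0 to 9 (9 without Low Protein litter 1), 0 to 2 and 0 to 219 (219 without Poly I:C litter 1), and between litters 0 to 5 for Low Protein and 0 to 249 for Poly I:C (249 when pup 2-1 of that group was left out). Pathway genes ranged over 1 to 5, 0 to 4 and 2 to 5. The median of the 8 genes ranged from 0.18 (without Low Protein litter 2) to 0.41 (without litter 1) for Low Protein, from -0.036 to 0.039 for MAM and from 0.044 (without Poly I:C litter 2) to 0.27 in Poly I:C. With 2 litters a group, litter and treatment are hard to separate, and Shmt1 and Mthfd1l rest on few reads.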

Other observations

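Some genes of a list of ATF4 targets, which held none of the 8 enzymes, were higher in Low Protein, and most of the list did not pass. Of 22 listed genes found in the table, 15 had every group mean above 1, and 6 of these (Aars, Atf5, Ddit3, Gars, Nars and Slc7a5) were higher and 0 lower at an unadjusted limma p under 0.05, against 3.66% of all genes higher. In the wider set 9 of 22 were higher, with Asns, Cars and Sesn2 added, against 2.76% of all genes. After adjustment 0 passed, as did 0 of all 13786 genes. Cars, a cysteinyl-tRNA synthetase gene, was higher by 0.40 (SE 0.11, adjusted p = 0.557), Asns, which makes asparagine, by 0.51 (SE 0.17, adjusted p = 0.661) and Atf5, a transcription factor gene, by 0.49 (SE 0.16, adjusted p = 0.479). Against saline, the litter 1 and litter 2 log2 differences were 0.095 and 0.93 for Asns, 0.053 and 0.93 for Atf5 and 0.13 and 0.68 for Cars. Sesn2, a stress-response gene, was at 0.37 and 0.50, above saline in both litters. In MAM Sesn2 was at 0.45 and 0.40, and in Poly I:C at 0.083 and 0.44. Its range was 0.255 to 0.352 TPM in saline, 0.379 to 0.439 in MAM and 0.290 to 0.612 in Low Protein. Of the 22 genes, 16 had the higher mean in litter 2 and 6 in litter 1, among them Atf4 itself (0.15 in litter 1 and -0.065 in litter 2) and Slc38a2 (0.15 and -0.19), and this difference between litters was not tested. The share of all genes higher in litter 2 was not computed. Over all genes of the wider set the median difference, litter 2 minus litter 1, was -0.065. In MAM, 1 of the 15 was higher (Ddit4, at 0.22) and 5 were lower (Atf4, Aars, Nars, Gars and Eprs, from -0.22 to -0.13), against 3.07% and 8.18% of all genes. In Poly I:C, Ddit3 was higher by 0.31 and Cebpb lower at -0.40, against 4.25% and 5.70%. In the wider set 2 of the 22 were higher in MAM, against 2.17% of all genes, and 5 were lower, against 1034 of 13786. For Poly I:C 1 was higher and 1 lower there, against 3.82% and 724 of 13786. None of these passed after adjustment. Slc38a2 and the MAM and Poly I:C genes were named after their values were seen. The list was chosen with earlier results known and all comparisons share the saline pups.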
